A study of Rattus norvegicus with 12 samples.

Results

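Kidney gene expression was set side by side between SD-derived rats, the strains PCK and SD, and rats on the FHH background, the strains FHH.Pkhd1 and FHH. The comparison takes 6 SD-derived arrays against 6 FHH-background arrays, which are all 12 arrays of the series. It asks which genes lay beyond both FHH-background pools in both SD-derived pools, whatever the state of the Pkhd1 segment. Of 10895 genes tested, 139 did so with at least a 1.5-fold gap between the nearest pools, 66 of them higher and 73 lower in SD-derived kidneys.

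PCK arose in the Sprague Dawley (SD) stock and carries mutated Pkhd1, a chromosome 9 gene whose loss in humans gives autosomal recessive polycystic kidney disease. SD is the outbred stock itself. FHH.Pkhd1 is a congenic strain that carries the PCK segment of chromosome 9 on the Fawn Hooded Hypertensive background, and FHH is that inbred strain without the segment. PCK and FHH.Pkhd1 thus share the mutated segment, and SD and FHH both lack it. All rats were 30 days old, were fed the 5LOD diet, and had no treatment that the labels name. RNA of both kidneys of 6 animals per strain was pooled and the pool was hybridized to 3 arrays, so that each strain is 1 pool and the spread between animals was not measured.

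Kidney proximal tubule cells are known for conjugating and exporting foreign compounds through glutathione S-transferases, glucuronosyltransferases, aldo-keto reductases and organic anion transporters. The renin-angiotensin system, whose main effector acts through the type 1 angiotensin receptor, and arachidonate metabolites made by cytochrome P450 enzymes are both known regulators of renal blood flow and salt handling. FHH rats are known for hypertension and proteinuria, neither of which was analysed here.

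The 3 genes chosen to stand for the comparison were Nat8b, Cryga and Agtrap. Nat8b belongs to the N-acetyltransferase 8 family, whose human member NAT8 acetylates cysteine conjugates in the last step of mercapturic acid formation. Cryga encodes gamma-crystallin A, a structural protein of the eye lens. Agtrap encodes the angiotensin II receptor-associated protein, which binds the type 1 receptor and favours its internalization. Their RefSeq promoters on the GRCr8 assembly are shown because the first and second have the widest gaps and the third is a member of the renin-angiotensin system. The 300-base windows span the annotated start, on the minus strand in each case, at chr4:119918272-119918571 for Nat8b, chr9:73978333-73978632 for Cryga and chr5:163802125-163802424 for Agtrap. Capitals mark the letters CCAAT on either strand, which read ATTGG on the opposite one.
Nat8b: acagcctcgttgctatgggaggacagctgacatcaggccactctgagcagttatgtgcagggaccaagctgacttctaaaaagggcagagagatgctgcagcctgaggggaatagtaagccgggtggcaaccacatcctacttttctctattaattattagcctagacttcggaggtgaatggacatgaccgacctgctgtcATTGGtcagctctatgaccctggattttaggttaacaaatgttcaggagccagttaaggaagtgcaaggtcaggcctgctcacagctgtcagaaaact
Cryga: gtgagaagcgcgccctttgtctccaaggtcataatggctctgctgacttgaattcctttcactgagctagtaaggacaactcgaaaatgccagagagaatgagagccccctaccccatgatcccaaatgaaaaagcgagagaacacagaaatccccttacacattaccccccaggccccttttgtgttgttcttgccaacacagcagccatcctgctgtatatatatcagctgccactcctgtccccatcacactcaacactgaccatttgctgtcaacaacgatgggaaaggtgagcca
Agtrap: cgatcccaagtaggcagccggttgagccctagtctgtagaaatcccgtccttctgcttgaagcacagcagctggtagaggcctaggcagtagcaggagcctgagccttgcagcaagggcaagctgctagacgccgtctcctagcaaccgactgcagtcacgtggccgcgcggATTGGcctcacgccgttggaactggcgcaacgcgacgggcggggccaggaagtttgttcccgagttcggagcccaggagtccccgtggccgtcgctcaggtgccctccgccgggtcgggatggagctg
The Nat8b and Agtrap windows each held 1 such box, and the Cryga window held none. CCAAT was found on either strand in 37.5% of 33469 rat promoters of this length, and TATAAA, which was in none of these windows, in 14.2%. Of the genes called below and Agtrap, 18 had a single promoter in the table, and 4 of those held CCAAT and 4 held TATAAA. The sequences are those of the reference assembly, and the alleles of the 4 strains were not analysed here.

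Signals were deposited as log2 RMA values, on which a difference of 1 is a 2-fold difference in hybridization signal. Values ran from 2.38 to 14.41 and array medians from 6.41 to 6.46. Correlations were 0.9973 to 0.9985 between arrays of a pool, 0.9916 to 0.9959 between the pools of a side and 0.9862 to 0.9926 across sides. All 27 measured markers of the proximal tubule reached the detection level of 5.74 in at least 1 pool. That level was set at the 40th percentile of the signals, with no blank probes behind it, and no fold is printed where a pool lay below it. The Y-linked gene Eif2s3y was at 9.85 in PCK and 9.66 in SD, against 9.51 in FHH.Pkhd1 and 9.57 in FHH, and Xist, the X inactivation transcript, was at 3.60 to 3.67 in the 4 pools. The poly-A spike-in probe sets averaged 10.81 in PCK and 10.47 in SD, against 10.01 in FHH.Pkhd1 and 11.11 in FHH. The actin 3' minus 5' difference, a sign of RNA quality, was 1.33 in PCK and 1.10 in SD, against 1.20 in FHH.Pkhd1 and 1.39 in FHH, so neither measure separated the sides.

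Both SD-derived pools lay above both FHH-background pools for 1927 genes, 17.7% of those tested, and below both for 4055 genes, 37.2%. Of these separated genes 32.2% were higher in SD-derived kidneys, but 46.5% were after quantile normalization and 43.7% with arrays centred on their median, so the excess of lower genes moved with the scaling. The median difference over all genes tested was -0.05 on the log2 scale. With a gap of at least 1.5-fold between the nearest pools, 66 genes were higher, 0.606% of those tested, and 73 were lower, 0.67%. For 24 of the higher genes at least 1 FHH-background pool was below the detection level. For 23 of the lower genes at least 1 SD-derived pool was, so the sizes of these differences are less certain. A gap of at least 2-fold was met by 26 genes in the higher and 22 in the lower direction. For all 139 genes the 6 SD-derived arrays also lay beyond the 6 FHH-background arrays. This follows in large part from the choice of the genes by the means of these same arrays. At the edge of the 1.5-fold gap, Tmem252 and Stat3 were just inside with gaps of 0.60 and 0.59, and Enpp4 and Srsf7-ps4 just outside, both at 0.58. In the lower direction Plin1 and Pparg were just inside, both at -0.59, and Egln3 and LOC102548472 just outside at -0.57 and -0.56.

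Limma on the 4 pool means, with 2 pools a side, called 14 genes higher (0.128% of those tested) and 14 lower (0.128%) at an adjusted p under 0.05 and at least 1.5-fold. All 28 also had the 1.5-fold gap. No pool was below the detection level for 9 of the 14 higher and 9 of the 14 lower calls. The spread in this test is that between the pools of a side, which are themselves different strains, and an exact permutation test of 2 pools against 2 cannot give a p below 0.333. The number of calls rests on each pool: it was 38 without PCK, 80 without SD, 2 without FHH.Pkhd1 and 15 without FHH. With the state of the segment added to the fit, 21 genes were called and 14 of the 28 were kept. Those lost were Alyref, Arg1, Ccnd2, Ces1e, Crebl2, Eps8, Flywch2, Glyat, Mdp1, Postn, Siae, Slc4a10, Slco1a3 and Spetex2l2, with a largest adjusted p = 0.104. Nat8b and Cryga were the 2 genes called without FHH.Pkhd1, and of the 28 they were the only ones called in all 30 alternative settings.

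**Figure D1:**
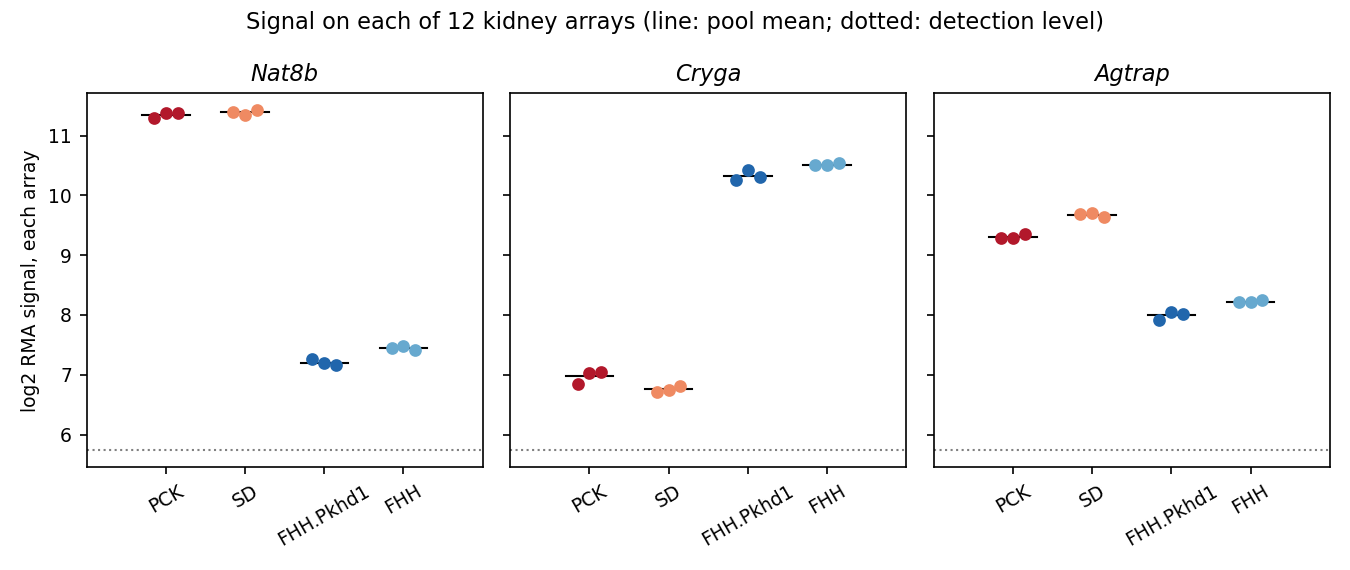
Log2 RMA signal of Nat8b, Cryga and Agtrap on each of the 12 arrays, by strain (points: arrays, 3 per pool; line: pool mean; dotted line: detection level of 5.74). Nat8b and Agtrap lay higher and Cryga lower on the 6 SD-derived arrays, with no overlap between sides for any of the 3 genes.

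Nat8b, on chromosome 4, had the widest gap in the higher direction. Its signal was 11.30, 11.38 and 11.38 on the PCK arrays and 11.39, 11.35 and 11.42 on the SD arrays, against 7.26, 7.19 and 7.16 in FHH.Pkhd1 and 7.45, 7.48 and 7.42 in FHH. The 6 SD-derived arrays lay within a narrow band far above the other 6. The sides differed by 4.04 ± 0.10 (SE), a 16.5-fold difference, with a limma adjusted p = 0.00598, and the nearest pools were 14.9-fold apart. PCK exceeded FHH.Pkhd1 by 4.15, and SD exceeded FHH by 3.94. Nat8b had no further detected probe set to set beside this one. Strain differences in sequence under the probes were not tested, for this or any other gene.

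Of the other Nat8 family members tested, each on its own probe set, Nat8f5 was separated in the same direction as Nat8b and Nat8, Nat8f1 and Nat8f3 overlapped. Nat8 was at 11.63 in PCK and 12.06 in SD, against 11.69 in FHH.Pkhd1 and 11.70 in FHH, so its sides overlapped. Nat8f1 was at 11.08 in PCK and 9.96 in SD, against 9.56 in FHH.Pkhd1 and 10.11 in FHH. Nat8f5 was separated, at 9.67 in PCK and 9.94 in SD, against 8.74 in FHH.Pkhd1 and 9.02 in FHH, a difference of 0.92 ± 0.14 with a limma adjusted p = 0.133. Nat8b, Nat8, Nat8f1, Nat8f3 and Nat8f5 all lie on chromosome 4. Signal shared between such related genes was not tested.

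In the list of glutathione conjugation and mercapturate genes, 33 of 41 members were tested. The gap reached 1.5-fold for 3 higher members (Nat8b, Nat8f5 and Gsta1) and 1 lower member (Gsta3), and limma called Nat8b alone. The median difference of the 33 was 0.19, against -0.05 over all genes. Gsta1 and Gsta3 are neighbouring glutathione S-transferases on chromosome 9 with opposite differences. Gsta1 was at 12.27 in PCK and 12.67 in SD, against 11.67 in FHH.Pkhd1 and 11.02 in FHH, and Gsta3 was at 8.66 in PCK and 8.99 in SD, against 9.82 in FHH.Pkhd1 and 9.97 in FHH. Neither passed limma, with adjusted p = 0.195 for Gsta1 and adjusted p = 0.109 for Gsta3. The subunits of glutamate-cysteine ligase, the first enzyme of glutathione synthesis, were separated by less, with differences of 0.39 for Gclc and 0.53 for Gclm.

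Cryga, on chromosome 9, had the widest gap in the lower direction. Its signal was 6.84, 7.03 and 7.05 on the PCK arrays and 6.72, 6.75 and 6.82 on the SD arrays, against 10.26, 10.43 and 10.30 in FHH.Pkhd1 and 10.51, 10.50 and 10.54 in FHH. The FHH-background arrays were thus high for this lens gene, and the SD-derived arrays stayed above the detection level. The difference of -3.56 ± 0.11 (SE) corresponds to an 11.8-fold lower signal in SD-derived kidneys, with a limma adjusted p = 0.0075. A further probe set of Cryga gave 6.51 in PCK and 6.16 in SD, against 9.79 in FHH.Pkhd1 and 9.91 in FHH, a difference of -3.52. FHH.Pkhd1, which carries PCK sequence on part of this chromosome, was close to FHH on both probe sets.

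Of the crystallins, 8 of 21 listed genes were tested, and Cryga was the 1 member with a gap and the 1 call of limma. The lens genes Crygb, Crygc and Crygd stayed below the detection level in all pools. The median difference of the tested members was 0.08. Cryz, a quinone oxidoreductase that shares the crystallin name, was at 11.22 in PCK and 12.06 in SD, against 10.78 in FHH.Pkhd1 and 11.05 in FHH, and its gap was smaller than 1.5-fold.

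Agtrap, on chromosome 5, was higher in SD-derived kidneys and did not pass limma on the pools. Its signal was 9.28, 9.29 and 9.35 in PCK and 9.69, 9.70 and 9.64 in SD, against 7.92, 8.05 and 8.01 in FHH.Pkhd1 and 8.21, 8.21 and 8.25 in FHH. The arrays of the sides did not overlap, although PCK and SD also stood apart from each other. The difference was 1.38 ± 0.16 (SE), or 2.61-fold, with a limma adjusted p = 0.104. A further probe set of Agtrap differed by more, at 8.68 in PCK and 8.997 in SD, against 6.62 in FHH.Pkhd1 and 6.27 in FHH, a difference of 2.39.

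Of the renin-angiotensin system, 11 of 16 listed genes were tested, and Agtrap was the 1 member with a 1.5-fold gap. The median difference of the list was -0.02, and limma called none of its members. Agt, the precursor angiotensinogen, was at 7.11 in PCK and 6.70 in SD, against 5.99 in FHH.Pkhd1 and 6.17 in FHH, a separated difference of 0.83 with a limma adjusted p = 0.168. The receptor gene Agtr1a differed by -0.15, and its nearest pools, SD and FHH, were both at 10.37. Anpep, an aminopeptidase that trims angiotensin peptides, was at 12.36 in PCK and 12.08 in SD, against 11.66 in FHH.Pkhd1 and 11.64 in FHH. The converting enzyme gene Ace overlapped, with PCK at 6.71 and SD at 5.43, against 5.63 in FHH.Pkhd1 and 5.59 in FHH.

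**Figure D2:**
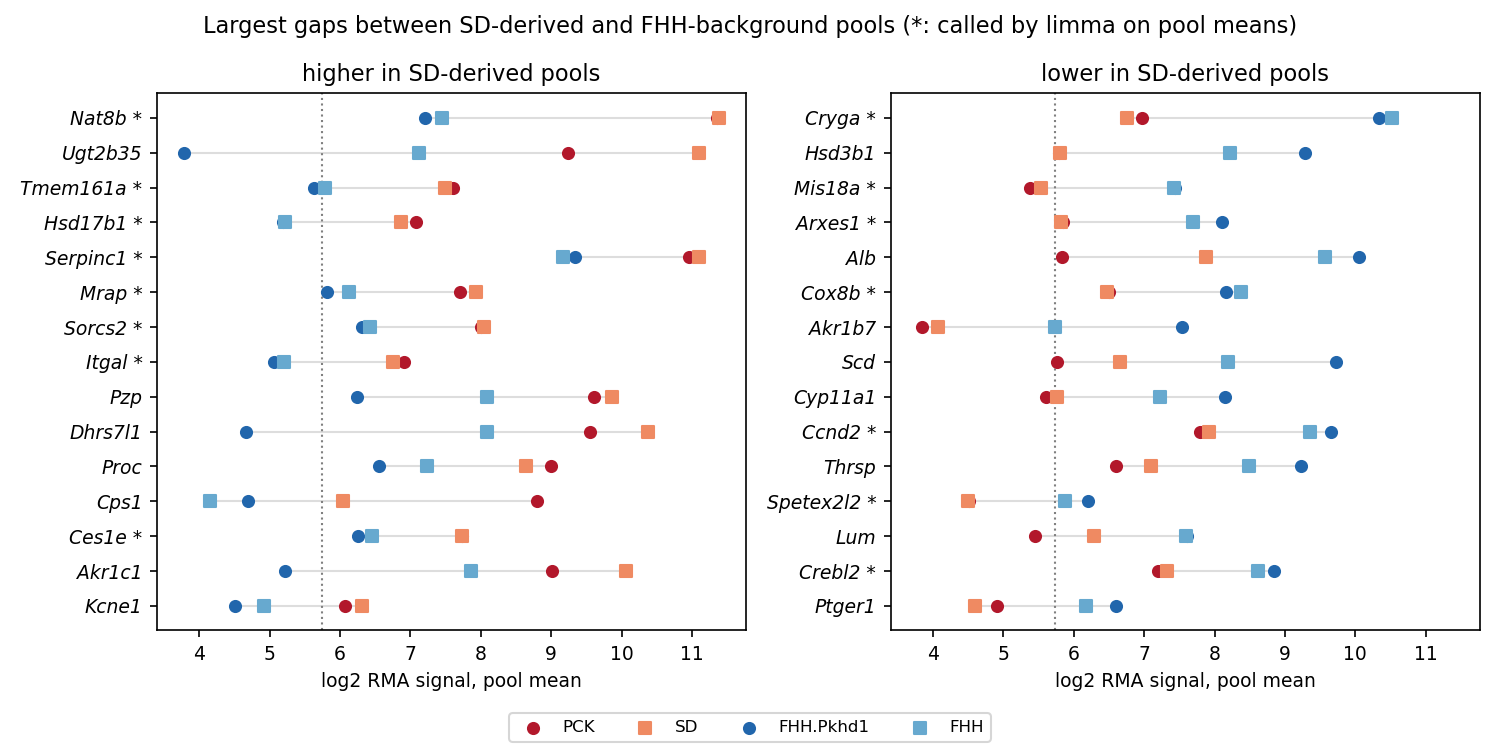
Pool means (log2 RMA signal) of the 15 genes with the widest gap in each direction, among genes whose symbol is no placeholder (circles: PCK and FHH.Pkhd1; squares: SD and FHH; dotted line: detection level; asterisk: called by limma on pool means). The called genes had pools of a side close together, as the call requires. Ugt2b35, Dhrs7l1, Akr1c1 and Pzp, which were not called, were lower in FHH.Pkhd1 than in FHH.

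The other 13 genes called higher spanned differences of 0.80 to 2.75. Serpinc1, which encodes antithrombin, the plasma inhibitor of thrombin, was at 10.96 in PCK and 11.10 in SD, against 9.34 in FHH.Pkhd1 and 9.17 in FHH (1.77 ± 0.10, or 3.42-fold, limma adjusted p = 0.0173). Sorcs2, a sorting receptor of the VPS10 family, was at 7.999 in PCK and 8.05 in SD, against 6.31 in FHH.Pkhd1 and 6.43 in FHH (1.65 ± 0.08, limma adjusted p = 0.0165). Mrap, which carries the ACTH receptor to the cell surface, was at 7.70 in PCK and 7.93 in SD, against 5.81 in FHH.Pkhd1 and 6.13 in FHH (1.84 ± 0.14, limma adjusted p = 0.0423). In each of these genes the pools of a side lay close together beside the distance between sides, which the call itself requires.

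Glyat, Slco1a3, Ces1e and Hsd17b1 were also called higher. Glyat, the mitochondrial enzyme that joins glycine to acyl groups, was at 11.47 in PCK and 11.55 in SD, against 10.44 in FHH.Pkhd1 and 10.56 in FHH. Slco1a3, an organic anion transporter of rat kidney, was at 10.95 in PCK and 10.96 in SD, against 9.81 in FHH.Pkhd1 and 9.92 in FHH, and a further probe set gave a difference of 0.96. Both were high in all pools, and they differed by 1.02 (Glyat) and 1.09 (Slco1a3). Ces1e, a carboxylesterase, was at 7.74 in PCK and 7.73 in SD, against 6.25 in FHH.Pkhd1 and 6.45 in FHH. Hsd17b1, which reduces estrone to estradiol, was at 7.07 in PCK and 6.87 in SD, against 5.19 in FHH.Pkhd1 and 5.22 in FHH, both below the detection level.

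The remaining higher calls were Itgal, Eps8, Alyref, Tmem161a and 2 genes with placeholder symbols. Itgal, the alpha chain of the leukocyte integrin LFA-1, was at 6.91 in PCK and 6.75 in SD, against 5.06 in FHH.Pkhd1 and 5.20 in FHH. Both FHH-background pools were below the detection level for Itgal. Eps8, an actin-capping substrate of the EGF receptor, was at 10.18 in PCK and 10.15 in SD, against 9.38 in FHH.Pkhd1 and 9.30 in FHH. Alyref, an mRNA export adaptor, was at 9.02 in PCK and 9.01 in SD, against 8.21 in FHH.Pkhd1 and 8.22 in FHH. Eps8 and Alyref had the smaller differences, 0.82 and 0.80. Tmem161a, which encodes a membrane protein, differed by 1.84, with FHH.Pkhd1 below the detection level. RGD1309362 and LOC100910237, the placeholders, differed by 2.75 and 2.34, and both lay below the detection level in both FHH-background pools.

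The other 13 genes called lower spanned differences of -0.81 to -2.07. Mis18a, which helps to load the centromeric histone CENP-A, was at 5.38 in PCK and 5.54 in SD, both below the detection level, against 7.43 in FHH.Pkhd1 and 7.43 in FHH (-1.97 ± 0.08, limma adjusted p = 0.0165). Ccnd2, the cell cycle protein cyclin D2, was at 7.80 in PCK and 7.92 in SD, against 9.66 in FHH.Pkhd1 and 9.36 in FHH (-1.65 ± 0.12, limma adjusted p = 0.0392). Dusp23, a dual-specificity phosphatase, was at 6.45 in PCK and 6.47 in SD, against 7.68 in each FHH-background pool (-1.22 ± 0.06, limma adjusted p = 0.0173). Ccnd2 was the one of these whose FHH-background pools stood somewhat apart. Siae, the sialic acid acetylesterase, was at 8.72 in PCK and 8.61 in SD, against 9.53 in FHH.Pkhd1 and 9.56 in FHH.

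Arxes1, Cox8b, Postn and Arg1 were also called lower. Arxes1, known from mouse adipocyte differentiation, was at 5.84 in PCK and 5.82 in SD, against 8.11 in FHH.Pkhd1 and 7.70 in FHH (-2.07 ± 0.15, limma adjusted p = 0.0388). Cox8b, a cytochrome c oxidase subunit of muscle and brown fat, was at 6.50 in PCK and 6.48 in SD, against 8.16 in FHH.Pkhd1 and 8.37 in FHH (-1.77 ± 0.09, limma adjusted p = 0.0173). Postn, the matrix protein periostin, was at 5.42 in both SD-derived pools, against 6.76 in FHH.Pkhd1 and 6.59 in FHH. The SD-derived pools were near or below the detection level for Arxes1 and Postn. Arg1, the arginase of the urea cycle, was at 5.55 in PCK and 5.66 in SD, both below the detection level, against 6.61 in FHH.Pkhd1 and 6.66 in FHH.

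The other lower calls were Spetex2l2, Crebl2, Mdp1, Slc4a10 and Flywch2. Both SD-derived pools were below the detection level for Spetex2l2. Crebl2 differed by -1.47 on the probe set kept, but a further probe set gave 7.87 in PCK and 7.76 in SD, against 7.73 in FHH.Pkhd1 and 7.81 in FHH. Mdp1, a magnesium-dependent phosphatase, differed by -1.02 on the probe set kept and by 0.36 on another, in the opposite direction. Flywch2 differed by -0.81, and by -0.88 on a further detected probe set. On the mean or the median of a gene's probe sets, Alyref, Crebl2, Eps8, Flywch2 and Mdp1 were no longer called. Of these, Eps8 had differed by 0.82 on the probe set kept and by 0.29 and 0.72 on further ones. Slc4a10, a sodium-coupled bicarbonate transporter, was at 5.25 in PCK and 5.17 in SD, both below the detection level, against 6.02 in FHH.Pkhd1 and 6.01 in FHH.

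**Figure D3:**
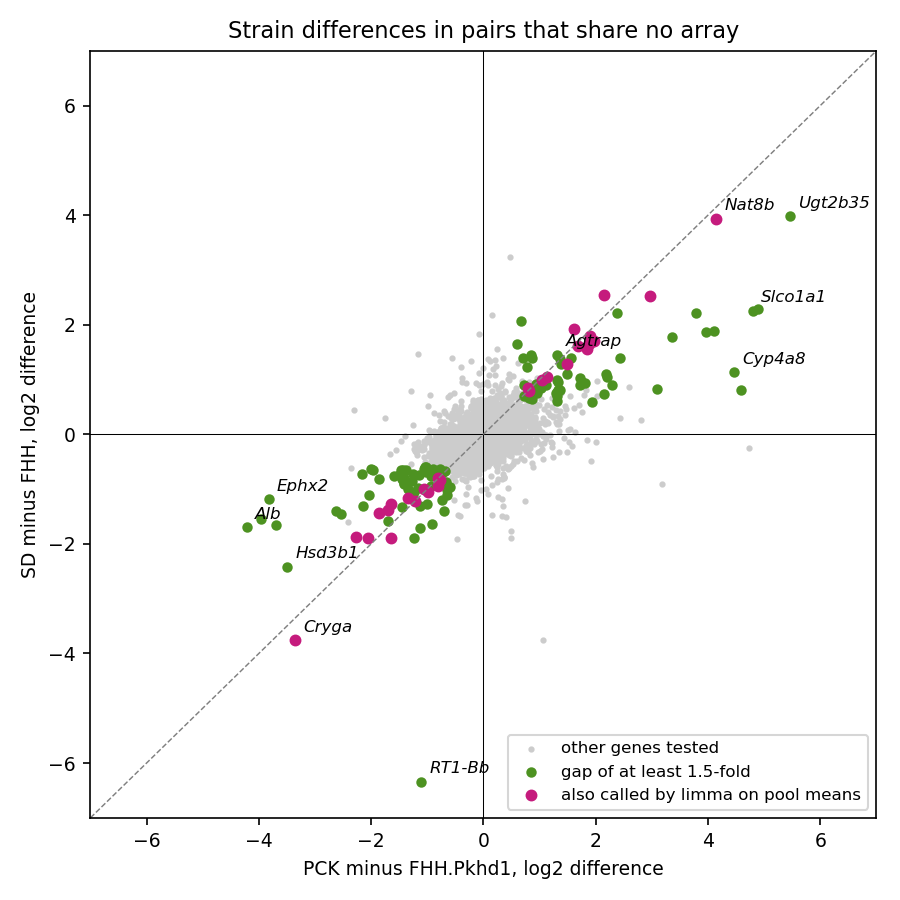
Log2 differences of 10895 genes in the pairs PCK minus FHH.Pkhd1 (horizontal) and SD minus FHH (vertical), which share no array (dashed: equal differences; green: gap of at least 1.5-fold; magenta: also called by limma on pool means). The magenta genes lie near the dashed line, as the small spread within a side that the call needs requires. RT1-Bb, Cyp4a8, Ephx2 and Slco1a1 lie far from that line.

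The sides can also be compared within each state of the segment, PCK against FHH.Pkhd1 and SD against FHH. In these pairs limma sets differences against the spread between arrays of a pool, which is technical. It called 635 genes between PCK and FHH.Pkhd1, 5.83% of those tested, and 361 between SD and FHH, 3.31%. Called the same way in both were 95 higher genes (0.872%) and 91 lower genes (0.835%), together 29.3% of the first list and 51.5% of the second. A further 9 genes were called with opposite signs. All 139 genes with the gap were among those called alike, which follows in large part from their choice by the same values. Across genes, both pairs' differences correlated with r = 0.531, as a description without a test.

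The pairs can be set side by side for the genes with the gap, as a description only, since the same pool means chose the genes. Among the genes with the gap, PCK minus FHH.Pkhd1 was the larger in size for 54 of the 66 higher and 53 of the 73 lower genes, or 81.8% and 72.6%, beside 61.7% of all genes tested. Their median size was 1.43 with the segment and 1.05 without it for the higher genes, and 1.23 and 0.95 for the lower genes. The limma interaction is PCK minus FHH.Pkhd1 less SD minus FHH. It passed an adjusted p of 0.05 and 1.5-fold for 50 of the 139 genes and for 547 of all genes, or 5.02%. None of the 28 genes called on the pools was among them, and the small spread within a side that this call needs also makes the interaction small.

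Ugt2b35, Dhrs7l1 and Slco1a1 had FHH.Pkhd1 as the lowest pool. Ugt2b35, a glucuronosyltransferase, was at 9.24 in PCK and 11.10 in SD, against 3.78 in FHH.Pkhd1 and 7.12 in FHH, a difference of 4.72 ± 1.26 with a limma adjusted p = 0.222. It was the 1 member with a gap among 11 tested glucuronosyltransferases and sulfotransferases, whose median difference was 0.30. Dhrs7l1, named for the short-chain dehydrogenase family, was at 9.56 in PCK and 10.37 in SD, against 4.67 in FHH.Pkhd1 and 8.09 in FHH. Slco1a1, an organic anion transporter, was at 8.57 in PCK and 10.23 in SD, against 3.78 in FHH.Pkhd1 and 7.97 in FHH. The FHH pool lay between FHH.Pkhd1 and the SD-derived pools in each of these genes.

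Akr1c1, Akr1c13 and AKR1C3l1, aldo-keto reductases of the Akr1c group, also had FHH.Pkhd1 lowest and FHH between it and the SD-derived pools. Akr1c1 was at 9.01 in PCK and 10.06 in SD, against 5.22 in FHH.Pkhd1 and 7.86 in FHH. Akr1c13 was at 10.20 in PCK and 11.03 in SD, against 6.23 in FHH.Pkhd1 and 9.16 in FHH, and AKR1C3l1 was at 11.70 in PCK and 11.32 in SD, against 8.60 in FHH.Pkhd1 and 10.50 in FHH. These 3 genes are neighbours on chromosome 17. Akr1c19 was at 8.59 in PCK and 8.60 in SD, against 7.70 in FHH.Pkhd1 and 8.03 in FHH, a gap under 1.5-fold. Akr1c15 was separated in the lower direction, at 5.44 in PCK and 5.25 in SD, against 5.77 in FHH.Pkhd1 and 5.82 in FHH, close to the detection level. Of 14 listed reductases tested, 3 had the gap in the higher direction and 1, Akr1b7, in the lower, with no limma call and a median difference of 0.09. The organic ion transporters gave 27 tested members, with Slco1a1 higher and Slco2a1, a prostaglandin carrier, lower by the gap, and a median of -0.01. The part of the close sequence of these families in the signals was not tested.

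In the list of arachidonate cytochrome P450, epoxide hydrolase and eicosanoid genes, 23 members were tested and 2 had the gap. Cyp4a8, a fatty acid omega-hydroxylase, was at 12.27 in PCK and 12.27 in SD, against 7.81 in FHH.Pkhd1 and 11.14 in FHH. A further probe set of Cyp4a8 gave a difference of 2.86. Ephx2, the soluble epoxide hydrolase that breaks down epoxyeicosatrienoic acids, was at 7.14 in PCK and 9.73 in SD, against 10.96 in FHH.Pkhd1 and 10.92 in FHH. Here it was PCK that stood apart, and the FHH-background pools were close together. Neither gene passed limma on the pools, with adjusted p = 0.301 for Cyp4a8 and adjusted p = 0.275 for Ephx2, and the list's median was 0.04.

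Pzp, Proc, Cps1 and Kcne1 were also among the widest gaps in the higher direction. Pzp, of the alpha-2-macroglobulin family of protease inhibitors, was at 9.61 in PCK and 9.86 in SD, against 6.25 in FHH.Pkhd1 and 8.09 in FHH. Proc, the anticoagulant protein C, was at 8.99 in PCK and 8.63 in SD, against 6.55 in FHH.Pkhd1 and 7.23 in FHH. Cps1, the first enzyme of the urea cycle, was at 8.79 in PCK and 6.04 in SD, against 4.69 in FHH.Pkhd1 and 4.16 in FHH. Both FHH-background pools were below the detection level for Cps1. The differences were 2.56 ± 0.62 for Pzp, 1.92 ± 0.26 for Proc and 2.99 ± 0.93 for Cps1, and limma called none of them (adjusted p = 0.118 to adjusted p = 0.254). Kcne1, a regulatory subunit of a voltage-gated potassium channel, was at 6.06 in PCK and 6.31 in SD, against 4.50 in FHH.Pkhd1 and 4.92 in FHH, both below the detection level.

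The liver marker list gave no single direction. Of its 9 tested members, Apoh was higher and Alb lower by the gap, and the median difference was -0.35. Alb, which encodes serum albumin, was at 5.83 in PCK and 7.88 in SD, against 10.05 in FHH.Pkhd1 and 9.58 in FHH, a difference of -2.95 ± 0.70 with a limma adjusted p = 0.199. Apoh, a plasma phospholipid-binding protein, was at 8.17 in PCK and 7.82 in SD, against 6.45 in FHH.Pkhd1 and 6.92 in FHH. The defining liver genes Apoa1, Apoa2, Serpina1, Fgg, Tat and Hpx were below the detection level in all pools. The summed linear signal of the 15 measured liver genes ranged from 1758 to 1839 in PCK and from 1325 to 1331 in SD, against 2270 to 2398 in FHH.Pkhd1 and 1925 to 2024 in FHH. Alb was among these genes, and the lower sums of the SD-derived pools rest in large part on it.

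**Figure D4:**
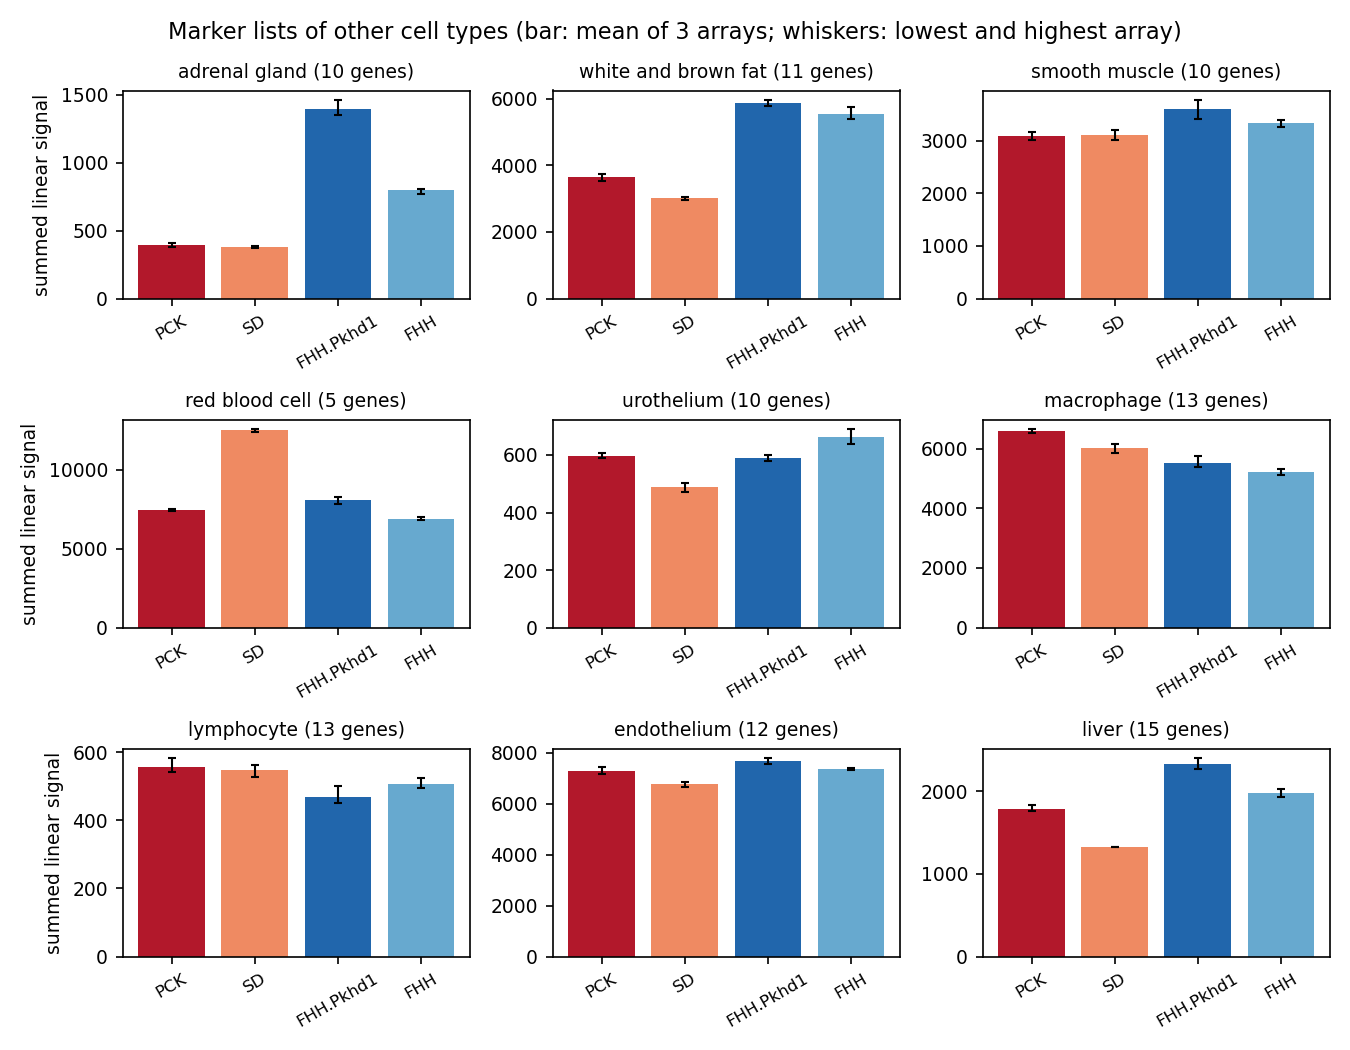
Summed linear signal of 9 marker lists in each pool (bar: mean of 3 arrays; whiskers: lowest and highest array; vertical axes start at 0 and differ between panels). The adrenal, fat, smooth muscle, endothelium and liver sums were lower in both SD-derived pools, the liver sum in large part through Alb. The macrophage and lymphocyte sums were higher in both, and the red blood cell sum was highest in SD.

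Genes of adrenal steroid synthesis were lower in SD-derived kidneys. Hsd3b1, which converts pregnenolone to progesterone, was at 5.80 in each SD-derived pool, against 9.29 in FHH.Pkhd1 and 8.22 in FHH, a difference of -2.96 ± 0.36 with a limma adjusted p = 0.107. Cyp11a1, the cholesterol side-chain cleavage enzyme, was at 5.61 in PCK and 5.76 in SD, against 8.15 in FHH.Pkhd1 and 7.23 in FHH. Star, which carries cholesterol into mitochondria, was at 5.50 in PCK and 5.60 in SD, against 7.54 in FHH.Pkhd1 and 6.70 in FHH. In all of these, SD-derived pools lay at or near the detection level and FHH.Pkhd1 was the highest. Akr1b7, an aldose reductase-like protein abundant in the mouse adrenal, was at 3.85 in PCK and 4.08 in SD, against 7.54 in FHH.Pkhd1 and 5.73 in FHH. Only FHH.Pkhd1 reached the detection level for Akr1b7, so its gap lay between pools below that level.

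The adrenal marker list had 5 tested members, of which 3 had the gap in the lower direction, with a median difference of -1.57 and no limma call. Its summed signal over 10 measured genes ranged from 377 to 411 in PCK and 372 to 390 in SD, against 1354 to 1458 in FHH.Pkhd1 and 771 to 809 in FHH. Cyp11b1, Cyp17a1, Nr5a1, Dbh and Chga were below the detection level in all pools. Mrap, also an adrenal and fat gene, went the opposite way, as given above. The part of adrenal tissue in these results was not tested, and in bulk kidney RNA fewer cells of a type and less RNA per cell cannot be told apart.

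Fat markers were lower as well. Cfd, the adipocyte protease adipsin, was at 5.96 in PCK and 5.75 in SD, against 7.41 in FHH.Pkhd1 and 7.07 in FHH. Cidea, a lipid droplet protein of brown fat, was at 8.19 in PCK and 7.59 in SD, against 9.32 in FHH.Pkhd1 and 9.29 in FHH. Ucp1, the uncoupling protein of brown fat, was at 7.54 in PCK and 7.93 in SD, against 8.66 in FHH.Pkhd1 and 9.25 in FHH. Of 9 tested fat markers 5 had the gap in the lower direction and none in the higher, with a median difference of -0.97 and no limma call. Adipoq overlapped between sides, Cidec was slightly higher in SD-derived pools, and Lep and Elovl3 were below the detection level in all pools.

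The summed fat signal over 11 measured genes ranged from 3522 to 3731 in PCK and 2958 to 3039 in SD, against 5785 to 5951 in FHH.Pkhd1 and 5404 to 5754 in FHH. Its part in the lower signals of Arxes1, Cox8b, Scd and Thrsp was not tested. Scd, the stearoyl-CoA desaturase, was at 5.77 in PCK and 6.66 in SD, against 9.73 in FHH.Pkhd1 and 8.20 in FHH. Thrsp, a nuclear protein of fat synthesis, was at 6.59 in PCK and 7.09 in SD, against 9.23 in FHH.Pkhd1 and 8.49 in FHH, and further probe sets gave differences of -1.98 and -1.64. Of 38 tested genes of lipid synthesis and fatty acid oxidation, Scd and Thrsp were the 2 with the gap, limma called none, and the list's median was -0.04.

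Lum and Dcn, the neighbouring genes of the proteoglycans lumican and decorin on chromosome 7, were both lower by the gap. Lum was at 5.46 in PCK and 6.29 in SD, against 7.60 in each FHH-background pool, and Dcn was at 11.22 in PCK and 11.00 in SD, against 11.97 in FHH.Pkhd1 and 11.85 in FHH. Mfap5, a microfibril protein, differed by -1.11, and Tnc, the matrix protein tenascin C, by -0.97. Limma called neither proteoglycan on the pools (adjusted p = 0.144 for Lum and adjusted p = 0.11 for Dcn). Ptger1, the prostaglandin E2 receptor EP1, was at 4.91 in PCK and 4.60 in SD, both below the detection level, against 6.61 in FHH.Pkhd1 and 6.18 in FHH.

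Class II antigen presentation genes of the rat RT1 region on chromosome 20 were lower on the probe sets kept. RT1-Db1 was at 9.30 in PCK and 9.47 in SD, against 10.31 in FHH.Pkhd1 and 10.15 in FHH. RT1-DMb, which helps load peptides, was at 9.55 in PCK and 9.48 in SD, against 10.45 in FHH.Pkhd1 and 10.23 in FHH. RT1-Ba was at 9.72 in PCK and 9.95 in SD, against 10.98 in FHH.Pkhd1 and 10.67 in FHH. The exception in size was RT1-Bb, at 9.81 in PCK and 4.39 in SD, against 10.92 in FHH.Pkhd1 and 10.73 in FHH, where SD alone was below the detection level.

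Probe sets of the class II genes did not give the same answer. A further probe set of RT1-Bb was at 4.28 in PCK and 9.47 in SD, against 4.10 in FHH.Pkhd1 and 4.24 in FHH. One of RT1-Ba was at 5.09 in PCK and 10.03 in SD, against 5.11 in FHH.Pkhd1 and 5.20 in FHH. On both, SD alone was high and PCK lay with the FHH-background pools below the detection level. On the 2 other probe sets of RT1-Ba the sides overlapped, with differences of 0.06 and 0.16. The mean over the probe sets of RT1-Ba, 0.41 higher in SD-derived pools, thus rests on SD and on 1 probe set. RT1-Db1 was lower on its further probe set too, at 8.32 in PCK and 7.16 in SD, against 9.01 in FHH.Pkhd1 and 8.96 in FHH. Of 25 tested genes of antigen presentation, 4 had the gap in the lower direction and none in the higher, with a median difference of -0.14 and no limma call. The lower direction for RT1-Ba and RT1-Bb is that of 1 probe set each.

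Genes studied at FHH kidney disease loci gave 9 tested members of 14 listed, of which Agtrap and Cyp4a8 had the gap, both higher, and limma called none. The list's median difference was 0.30. Rab38, a small GTPase of lysosome-related organelles, was at 6.37 in PCK and 6.24 in SD, against 5.96 in FHH.Pkhd1 and 6.04 in FHH. Its difference of 0.30 had a limma adjusted p = 0.219. None of 26 tested genes of lysosome-related organelles had the gap, and their median was -0.04. Mlph, which links Rab27a to myosin in melanosome transport, had the largest difference of these, 0.64.

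Lists of filtration barrier and tubule genes had no member with the gap, beside 0.606% higher and 0.67% lower of all genes. None of 22 podocyte and glomerular barrier genes had the gap (median -0.06), and Nphs1, which encodes nephrin, was at 8.19 in PCK and 7.89 in SD, against 8.63 in FHH.Pkhd1 and 8.29 in FHH. None of 22 proximal tubule endocytosis genes (median 0.04) and none of 27 proximal tubule markers (median 0.08) had it. Slc7a13, an amino acid transporter of the late proximal tubule, was at 13.36 in PCK and 13.20 in SD, against 12.53 in FHH.Pkhd1 and 12.83 in FHH. Of 31 distal nephron and collecting duct transport genes none had the gap, and 15 were separated lower and 1 higher, with a median of -0.19. Over all genes 37.2% were separated lower and 17.7% higher, a split that moved with the scaling. Slc26a4, the pendrin exchanger of intercalated cells, was at 9.16 in PCK and 8.73 in SD, against 9.48 in FHH.Pkhd1 and 9.27 in FHH.

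Lists of clock, interferon and injury genes can be read against the same shares of all genes. Of 17 circadian clock genes it was met by Bhlhe40 alone, a repressor of the clock, at 7.20 in PCK and 7.93 in SD, against 8.64 in FHH.Pkhd1 and 8.59 in FHH, and the list's median was -0.20. None of 22 interferon response genes (median 0.17) and none of 24 tubule injury and repair genes (median 0.20) met it. Clu, the injury-induced chaperone clusterin, was at 11.62 in PCK and 10.07 in SD, against 9.59 in FHH.Pkhd1 and 9.37 in FHH. Tff3, a secreted trefoil peptide, was at 11.31 in PCK and 11.93 in SD, against 8.72 in FHH.Pkhd1 and 11.06 in FHH. In both, 1 pool stood apart and the sides were separated by less than 1.5-fold.

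Marker lists of the remaining cell types had no member with the gap. The median difference was -0.13 for 8 smooth muscle genes, 0.42 for 4 red blood cell genes, -0.16 for 6 urothelium genes, 0.18 for 12 macrophage genes, 0.23 for 3 lymphocyte genes and -0.10 for 11 endothelium genes. Alas2, the haem synthesis enzyme of red cell precursors, was at 7.46 in PCK and 8.59 in SD, against 7.46 in FHH.Pkhd1 and 7.38 in FHH. The red blood cell sum was 12407 to 12546 in SD, and between 6809 and 8293 on the arrays of the other pools. Hba-a3, a globin gene outside the list, did have the gap in the higher direction. For it PCK exceeded FHH.Pkhd1 by 0.67 and SD exceeded FHH by 2.07. Beside the higher Itgal, the macrophage sum averaged 6602 in PCK and 6037 in SD, against 5534 in FHH.Pkhd1 and 5224 in FHH. Most of that sum was Lyz2, which differed by 0.27 and whose arrays overlapped between sides. Of the 12 tested macrophage genes, 9 were separated higher and 0 lower, all by less than 1.5-fold. The lymphocyte sum averaged 558 in PCK and 547 in SD, against 470 in FHH.Pkhd1 and 507 in FHH. Of 13 measured lymphocyte genes 10, among them Cd3e, Cd4 and Ms4a1, were below the detection level in all pools, and the part of leukocytes in the Itgal result was not tested.

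Other probe sets of the 139 genes give values that the choice of members did not use. For 29 of the genes, 36 further detected probe sets were measured. Of these, 28 differed in the same direction, 26 were separated the same way and 17 with the 1.5-fold gap. In the opposite direction, 3 were separated and 0 had the gap. Of all genes tested, 17.7% were separated higher and 37.2% lower, and 0.606% and 0.67% had the gap. The further probe sets read the same RNA pools, so they give no measure of the spread between animals. Pop5, a subunit of ribonuclease P, had a larger difference on its second probe set, 1.94, than the 1.15 on the one kept.

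The genes with the gap lay on every chromosome but Y. Their share of the genes tested was highest on chromosome 4, at 2.71%, and lowest on chromosome 6, at 0.414%, apart from the 2 Y genes tested. Chromosome 9, which carries the segment in PCK and FHH.Pkhd1, had 1.64%. Genes next to each other among those tested, in the order of the RefSeq assembly, both had the gap in 10 pairs. In 8 of those pairs both genes went the same way. The pairs held 18 genes, as runs of Akr1c and of RT1 genes gave more than 1 pair each. Pairs of Akr1c, RT1, Slco1a and Gsta genes are of related sequence. The number of pairs to expect without regard to position was not worked out, so the count is a description. Acsm3, an acyl-CoA synthetase, and its neighbour Eri2 on chromosome 1 were both higher, with differences of 1.36 for Acsm3 and 0.91 for Eri2. RGD1309362 and Ifgga2l1 on chromosome 18 were both higher, as were Slco1a1 and Slco1a3 on chromosome 4. Mis18a and Mrap on chromosome 11, both called on the pools, were neighbours of opposite direction.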

How the data were processed

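Kidney RNA of 4 rat strains was measured on 12 Affymetrix arrays, 3 per pool of 6 animals. The authors deposited log2 probe set signals, for which the submitters' processing notes name RMA and Partek 6.2. Joint normalization of all arrays was not given in the sources used here. Of 31099 probe sets, 57 controls were left out, 20826 carried 1 symbol, 436 several and 9780 none, and 20812 of those with 1 symbol matched a RefSeq gene (GRCr8, used for names and order). For 14217 genes, the brightest probe set on average was kept, and 10895 genes reached the detection level in at least 1 pool and were tested.

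The arrays of a pool are technical replicates, so limma 3.58.1 (R 4.3.3) was fitted to the 4 pool means, with residual degrees of freedom 2 and prior degrees of freedom 2.6. A fit of 12 arrays with 1 mean per strain gave the differences PCK less FHH.Pkhd1 and SD less FHH, with their interaction. The Benjamini-Hochberg adjustment ran over all tested genes, with calls at an adjusted p under 0.05 and 1.5-fold. Errors are standard errors of the pool fit, and the number of pools limits the precision. The procedure was run on simulated pools that varied independently, with the spread that the fit itself estimates. Such a run checks the code and cannot show how well 2 different strains stand for a side.

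The members, the 18 gene lists and the 9 marker lists were chosen with earlier results of these data known. Named genes were the 15 widest gaps in each direction without placeholder symbols, the 3 marker genes, and up to 3 members of each list with the gap (up to 2 where none had it). The other called genes, neighbouring genes and further list or matrix genes were named after their values were seen. Filters, probe set choice, normalization, variance model, blocks, fold limits and left-out arrays and pools were varied. Numbers on the arrays did not pair the samples, with correlations of same-numbered deviations from -0.331 to 0.337. Figures were drawn with matplotlib.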

Additional observations from a re-analysis of the deposited data

Results flagged for a closer look

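For 30 of the 139 genes with the gap, the difference between sides was not the same in the pair with the Pkhd1 segment as in the pair without it. The value given is the limma interaction on arrays, PCK minus FHH.Pkhd1 less SD minus FHH, and each passed an adjusted p of 0.05 with a size of at least 1 on the log2 scale. The spread in this test is that between arrays of a pool, so it compares pools and not animals. The genes were chosen by the same pool means for large differences, which leaves more room for a large interaction. The share of all genes tested that passed at this size was not counted. At 1.5-fold it was 5.02% of all genes tested, beside 39.4% of the higher and 32.9% of the lower genes with the gap. Of all genes tested, 61.7% had the larger difference in the pair with the segment. The pair with the segment had the larger difference for 16 higher and 11 lower genes, and the pair without it for 2 higher genes and 1 lower gene. That lower gene was RT1-Bb, at 5.23, where PCK was lower than FHH.Pkhd1 by 1.11 and SD lower than FHH by 6.34. The 2 higher genes were Hba-a3, at -1.40, and Gsta1, at -1.05, where PCK exceeded FHH.Pkhd1 by 0.60 and SD exceeded FHH by 1.65. Of the 16 higher genes, the values were 3.78 for Slc7a12, 3.33 for Cyp4a8, 2.61 for Dhrs7l1, 2.54 for Slco1a1, 2.28 for AKR1C3l1, 2.22 for Cps1 and 2.11 for Akr1c13. Smaller ones were 1.59 for Pzp, 1.58 for Akr1c1, 1.48 for Ugt2b35, 1.40 for Rarres1, 1.39 for Casq1, 1.34 for Tmem252, 1.15 for Enpp1, 1.08 for Hao1 and 1.04 for Proc. Of the 11 lower genes, they were -2.65 for Ephx2, -2.53 for Alb, -2.42 for Scd, -2.04 for Akr1b7, -1.43 for Car3 and -1.37 for Gadl1. The others were -1.31 for Pappa2, -1.24 for Thrsp, -1.08 for Hsd3b1, -1.08 for Cyp11a1 and -1.04 for Homer2.

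Probe sets with no gene symbol, or with several, were outside the comparison by gene. Of 4691 such probe sets at the detection level, 88 had a gap of at least 1.5-fold, 46 higher (0.981%) and 42 lower (0.895%) in SD-derived pools. The widest belonged to probe set 1390722_at, at 8.82 in PCK and 9.01 in SD, against 4.50 in FHH.Pkhd1 and 4.66 in FHH. Probe set 1386212_at had the widest gap in the lower direction, at 4.03 in PCK and 4.01 in SD, against 7.26 in FHH.Pkhd1 and 8.04 in FHH.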

How the results depend on the processing

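With 2 pools a side, the counts depend on what counts as spread. Set against 28 genes called on pool means, 184 higher and 174 lower were called when the sides were compared over the spread between arrays, and 153 higher and 152 lower with the pool as a random block (correlation 0.561). The 12 arrays with the replicate block also gave 184 higher and 174 lower, and all 28 calls were kept in these settings; the array numbers did not pair the samples. A term for the Pkhd1 segment left 7 lower calls, and 14 of the 28 were kept. With the filter at the 60th percentile 8 genes were called lower and 1250 separated higher, and with no filter 3438 were separated higher. Without the fold limit 1927 higher and 4055 lower genes were separated and 689 higher and 1519 lower were called alike in both pairs; at 2-fold these were 26, 22, 29 and 27.

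With 1 array or 1 pool left out, calls ranged from 1 to 37 higher and from 1 to 43 lower, separated genes from 1873 to 3230 higher and from 3688 to 5578 lower, and genes with the gap from 63 to 169 higher and from 64 to 184 lower. A lone pool was assumed to vary like the other side, and fewer pools make separation easier by construction. Genes called alike ranged from 93 to 99 higher and from 86 to 93 lower without 1 array. The difference changed sign for RT1-Ba on the mean (0.41) and median (0.72) of its probe sets, for Ahsp, from -0.54 without SD to 1.37 without PCK, and for Wt1, from -0.45 without FHH to 0.016 without FHH.Pkhd1. Of the values of named genes in the alternatives, 2052 kept their direction and side of the threshold, 153 lost the call, 147 gained one and 4 changed sign. Where the change was a construction of fewer genes or pools it is given as such; otherwise the cause was not tested. Signals near the detection level limit the smaller differences.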
